A study of Homo sapiens with 2 samples.

Results

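The genes described here encode ubiquitin (UBB), the segregase p97 (VCP), the transcription factor NRF1 with 2 of its processing enzymes (NFE2L1, DDI2 and NGLY1), the ubiquilin shuttles UBQLN1 and UBQLN2, and the proteasome-binding protein ZFAND5. They were listed by name as genes of the response to an impaired proteasome, with no threshold on their values but with earlier results of these data known, and all 8 were found among the 58174 genes listed. All 8 had a mean of 1 TPM or more and so passed the filter on low values. TPM is a transcript level corrected for length and scaled to a fixed total, so that genes can be compared within a library.

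The libraries came from PC3, an established human prostate cancer cell line. One was from cells transfected with a small interfering RNA (siRNA) named POH1 siRNA, and the other from cells that received a control siRNA. POH1 is the deubiquitinase of the proteasome lid, encoded by PSMD14. The labels state neither the time after transfection nor the number of siRNA sequences. There was 1 library per group, so the values have no error and no difference could be weighed against replicate spread.

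The gene that the siRNA targets, PSMD14, was at 35.1 TPM in the POH1 siRNA library and 50.9 TPM in the control library. Its log2 difference of -0.52 was short of the 1.5-fold size used here (0.585), and it was -0.24 after an adjustment for transcript GC content. The keratin gene KRT18 was at 454 TPM in the POH1 siRNA library and 455 TPM in the control library. The prostate gene KLK3 was listed at 0 in both libraries. PC3 is known as an epithelial line. The median log2 difference of the 15008 genes averaging at least 1 TPM was 0.12, so a value near 0 lies below the middle of all genes. In bulk RNA, a large difference in some cells and a small one in all cells cannot be told apart, nor can fewer cells of a kind and less RNA per cell.

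Ubiquitin marks proteins for destruction and is made as head-to-tail chains or as fusions to ribosomal proteins, which are cut into single units after translation. The NRF1 of this pathway is the product of NFE2L1 and should not be confused with nuclear respiratory factor, whose gene carries the symbol NRF1. The protein is made in the endoplasmic reticulum membrane, drawn out by p97, stripped of its sugars by the NGLY1 enzyme and cut by the DDI2 protease. The cut form enters the nucleus and, with a small MAF partner, induces proteasome subunit genes. Most of this control acts on the protein, which was not measured here. Ubiquilins carry ubiquitin-tagged proteins to the proteasome, and ZFAND5 binds the proteasome and stimulates degradation.

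The coding sequence of UBB shows why its reads can be hard to place: in the reference transcript it holds 3 ubiquitin units of 228 bases each, end to end. The first 60 bases of each unit are printed 5′ to 3′, with bases that differ from the first unit in capitals. The sequences are from GENCODE release 29 on GRCh38, plus strand, at chr17:16381908-16381967, chr17:16382136-16382195 and chr17:16382364-16382423.
UBB unit 1: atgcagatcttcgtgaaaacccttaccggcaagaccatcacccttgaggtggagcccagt
UBB unit 2: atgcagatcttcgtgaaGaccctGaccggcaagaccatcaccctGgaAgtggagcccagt
UBB unit 3: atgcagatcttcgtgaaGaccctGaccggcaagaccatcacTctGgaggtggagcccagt
Over the whole unit, the second matched the first at 96.5% of bases and the third at 94.7%. The files do not say how reads that match several places were counted. The 5 named UBB pseudogenes together held 7.21 TPM in the POH1 siRNA library and 8.68 TPM in the control library. With them added to UBB, the log2 difference was 0.30.

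Promoters were searched for TGACNNNGC, a core of the antioxidant response element that NRF1 and its relatives bind as partners of small MAF proteins. Both strands were read over the 250 bases before each RefSeq start. Of the 8 genes, 5 held a match in at least 1 of their windows: UBB, VCP, UBQLN1, UBQLN2 and ZFAND5. The sites are printed because they lie before a RefSeq start of the genes whose levels this text compares. In GENCODE release 29 the sites of UBB, VCP and UBQLN1 fall within the annotated gene, and those of UBQLN2 and ZFAND5 lie upstream of it. The matched bases are in capitals, each stretch is written in the direction of its gene, and all are from RefSeq on GRCh38.p14. The places are chr17:16381301-16381329 (plus strand), chr9:35072796-35072824 (minus), chr9:83708016-83708044 (minus), chrX:56563471-56563532 (plus) and chr9:72365304-72365364 (minus), from UBB to ZFAND5.
UBB: gagggcgaggTGACGCGGCgctgggcctt
VCP: tgcggccaatTGACGTGGCgttactaggc
UBQLN1: cagccggggaTGACTCGGCgacgccgcca
UBQLN2: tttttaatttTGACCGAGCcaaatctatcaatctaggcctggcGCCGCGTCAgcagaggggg
ZFAND5: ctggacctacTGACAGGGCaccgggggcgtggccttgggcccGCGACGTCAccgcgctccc
In UBQLN2 and ZFAND5 the second match is on the opposite strand, so it reads in reverse complement. The match in UBB lay in 1 of its 2 windows and those in ZFAND5 in 1 of its 3. NFE2L1, DDI2 and NGLY1 held none in their windows.

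Such letters are common. A match was found in 10.9% of all 35116 promoter windows and 2 or more in 0.752% of them. Counted by gene, 13.2% of the 27305 genes with a window held a match, as did 15.8% of those that also averaged at least 1 TPM. Of the 27 measured 20S and 19S proteasome subunit genes with a window, 7 (25.9%) held one. The median log2 difference was 0.15 for the 1652 tested genes with a match and 0.11 for the 8809 without, and 0.12 for the 131 genes with 2 or more. The G form TGAGNNNGC, the heat shock element pairs GAANNTTC and TTCNNGAA, and the cAMP response element TGACGTCA were found in none of the 8 genes' windows. These occurred in 14.8%, 5.78%, 6.62% and 1.65% of all windows. Of the genes with a window, 17.7%, 7.05%, 8.12% and 2.03% held them.

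Of the 8 genes, 1 was at least 1.5-fold higher in the POH1 siRNA library, on the log2(TPM + 1) scale used for all such counts, and 0 were 1.5-fold lower. Over all genes tested, 10.2% were 1.5-fold higher and 8.88% were 1.5-fold lower, so that 53.5% of the called genes were higher. This split depends on the scaling: the higher genes made up 34.2% of those called with the median ratio of all genes scaled to 1, 35.8% with the trimmed mean, 43.3% without the most abundant genes and 70.9% after adjustment for GC content. That adjustment subtracts from each gene the running median of genes of like GC content and adds back the median of all genes averaging at least 5 TPM, 0.14. The single called gene was ZFAND5, and 1 of 8 is close to the share over all genes. The median log2 difference of the 8 genes was 0.29, against 0.12 over all genes; with the median ratio scaled to 1 it was 0.16. Of the 8 values, 6 were above 0 and 2 below, and 5 were above the median of all genes. Among all genes tested, 9182 of 15008 were also above 0.

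**Figure D1:**
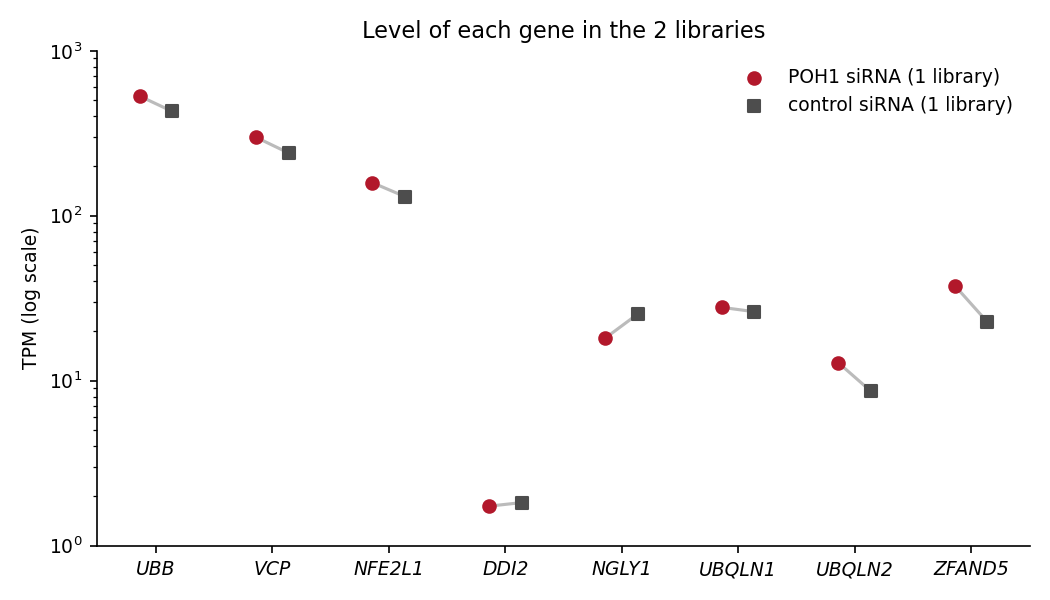
Level of the 8 genes in TPM on a log axis, 1 point per library (POH1 siRNA red circle, control siRNA grey square), with a line joining the 2 libraries of a gene. UBB, VCP and NFE2L1 lie above 100 TPM in both libraries, DDI2 lies below 2 TPM, and ZFAND5 has the steepest line, at 37.7 TPM with POH1 siRNA and 22.7 TPM in the control.

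UBB was at 531 TPM in the POH1 siRNA library and 429 TPM in the control library, 1.24-fold higher. Its log2 difference of 0.31 was 0.19 above the median of all genes, and 30.2% of all genes had a difference as high or higher. UBB is a stress-inducible polyubiquitin gene. An antisense gene, ENSG00000265401, overlaps UBB on the opposite strand and was at 26.2 TPM in the POH1 siRNA library and 48.3 TPM in the control library. Where strand was not used in counting, the reads of such a pair cannot be told apart.

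Of the 4 measured genes that encode ubiquitin, UBB included, 0 were at least 1.5-fold higher and 1 was 1.5-fold lower, with a median of 0.14. For comparison, 10.2% of all genes were higher and 8.88% were lower. The lower gene was RPS27A, a fusion of ubiquitin to a protein of the small ribosomal subunit, with 368 TPM in the POH1 siRNA library and 757 TPM in the control library.

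VCP was at 299 TPM in the POH1 siRNA library and 240 TPM in the control library, 1.245-fold higher, with a log2 difference of 0.32. Its product p97 is the ATP-driven unfoldase that pulls ubiquitin-tagged proteins out of membranes and complexes. No other gene shares exons with VCP or lies opposite to them in the annotation. A difference as high or higher was seen in 29.4% of all genes.

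Of 28 genes for cofactors that direct p97 to its substrates, 25 passed the filter. Of these, 2 were called higher, 2 were called lower and 21 lay within 1.5-fold, counts close to the 10.2% higher and 8.88% lower over all genes. Their median log2 difference was -0.07. Among the higher genes was UBE4B, a ubiquitin chain elongation enzyme, at 34.1 TPM in the POH1 siRNA library and 20.4 TPM in the control library, which was not called with the median ratio scaled to 1. UBXN8, a membrane anchor of p97, was at 4.14 TPM in the POH1 siRNA library and 7.85 TPM in the control library, and its log2 difference of -0.78 was -0.47 after GC adjustment, within 1.5-fold.

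UBXN2B, a p97 adaptor of the Golgi and endoplasmic reticulum, was at 0.867 TPM in the POH1 siRNA library and 1.89 TPM in the control library, and it too lay within 1.5-fold after that adjustment (-0.26). The main substrate adaptor of p97 in this route is a dimer of UFD1 and NPLOC4, and its genes differed in direction. NPLOC4 was at 144 TPM in the POH1 siRNA library and 97.6 TPM in the control library, a log2 difference of 0.56 that is below the 1.5-fold size. UFD1 was at 129 TPM in the POH1 siRNA library and 139 TPM in the control library. The ratio of NPLOC4 to UFD1 was 1.11 in the POH1 siRNA library and 0.702 in the control library.

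NFE2L1 was at 158 TPM in the POH1 siRNA library and 130 TPM in the control library, 1.21-fold higher. Its log2 difference was 0.28, and 33.1% of all genes had one as high or higher. UBB, VCP and NFE2L1 thus had nearly the same log2 difference, between 0.28 and 0.32, and were the 3 most abundant of the 8 genes in both libraries. An antisense gene, ENSG00000266341, lies opposite NFE2L1 and was at 6.22 TPM in the POH1 siRNA library and 4.79 TPM in the control library.

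The genes of the 2 NRF1 processing enzymes, NGLY1 and DDI2, were not higher before GC adjustment. After it NGLY1 was at -0.09, and DDI2 was at 0.08, below the adjusted median of all genes, 0.15. NGLY1, which removes N-linked sugars, was at 18.1 TPM in the POH1 siRNA library and 25.4 TPM in the control library, 1.40-fold lower, with a log2 difference of -0.47. This was the lowest value of the 8 genes, still within 1.5-fold, and 12.5% of all genes had a difference as low or lower. OXSM, a mitochondrial fatty acid synthesis gene that overlaps NGLY1 on the opposite strand, was also lower, at 13.3 TPM in the POH1 siRNA library and 22.02 TPM in the control library. How much each gene contributes to the reads they share was not tested.

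DDI2, the protease that cuts NRF1, was at 1.74 TPM in the POH1 siRNA library and 1.82 TPM in the control library, a log2 difference of -0.05. It was by far the least abundant of the 8 genes. The level of NFE2L1 was 91.3 times that of DDI2 in the POH1 siRNA library and 71.5 times in the control library. The related protease gene DDI1 was listed at 0 in both libraries. RSC1A1, which shares exons with DDI2, was at 0.0735 TPM in the POH1 siRNA library and 0.0690 TPM in the control library.

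Of the other genes that process NRF1 or set its turnover and activity, 15 of 16 passed the filter. Among them 1 was called higher, 0 were called lower and 14 lay within 1.5-fold, with a median of -0.05. Over all genes, 10.2% were called higher and 8.88% lower. The called gene was FBXO2, a ubiquitin ligase subunit that binds sugar chains, at 92.7 TPM in the POH1 siRNA library and 61.1 TPM in the control library. It was not called under any of the 3 other scalings or after GC adjustment. The genes called after GC adjustment were SEL1L (0.91) and FBXW7 (0.66), a ligase subunit that targets NRF1. FBXW7 was at 3.39 TPM in the POH1 siRNA library and 2.47 TPM in the control library, a log2 difference of 0.34 before adjustment. Its mean of 2.93 TPM is below the 5 TPM of the genes that gave the running median. SEL1L, a scaffold of the retrotranslocation complex, was at 8.44 TPM in the POH1 siRNA library and 5.49 TPM in the control library. Its ligase partner SYVN1 was at 109 TPM in the POH1 siRNA library and 93.1 TPM in the control library. The gene nearest to the lower side was HERPUD1, at 75.9 TPM in the POH1 siRNA library and 107 TPM in the control library.

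On the log2(TPM + 1) scale before GC adjustment, the measured relatives and partners of NFE2L1 differed more than NFE2L1 itself. After GC adjustment NFE2L3 differed less, at -0.02 against 0.23 for NFE2L1. Of 7 measured CNC, BACH and small MAF genes, 1 was called higher (all genes: 10.2%) and 2 were called lower (all genes: 8.88%). Their median log2 difference was 0.43, but 0.029 with a filter at 5 TPM, which leaves out BACH1, and 0.22 with a pseudocount of 5. NFE2L2, which encodes the oxidative stress factor NRF2, was at 14.1 TPM in the POH1 siRNA library and 34.3 TPM in the control library, 2.44-fold lower. The ratio of NFE2L1 to NFE2L2 was 11.2 in the POH1 siRNA library and 3.80 in the control library. NFE2L3 was at 15.8 TPM in the POH1 siRNA library and 20.7 TPM in the control library, and NFE2 was at 7.52 TPM in the POH1 siRNA library and 5.33 TPM in the control library. BACH1, a repressor at the same elements, was at 2.54 TPM in the POH1 siRNA library and 1.49 TPM in the control library; BACH2 fell below the filter.

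The 3 small MAF genes, whose products pair with NRF1 on DNA, differed in opposite directions. MAFF was at 13.3 TPM in the POH1 siRNA library and 59.5 TPM in the control library, 4.46-fold lower, and only 0.260% of all genes had a difference as low or lower. MAFK was at 50.02 TPM in the POH1 siRNA library and 29.2 TPM in the control library, and MAFG was at 36.4 TPM in the POH1 siRNA library and 26.2 TPM in the control library. MAFK was the called gene on the higher side (log2 difference 0.76), and after GC adjustment it was at 0.57, within 1.5-fold, while BACH1 was at 0.89. The sum of the 3 was 99.7 TPM in the POH1 siRNA library and 115 TPM in the control library. MAFF made up 13.4% of that sum with POH1 siRNA and 51.8% in the control. TMEM184A, which overlaps MAFK on the opposite strand, was at 25.4 TPM in the POH1 siRNA library and 13.98 TPM in the control library.

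UBQLN2 was at 12.9 TPM in the POH1 siRNA library and 8.63 TPM in the control library, 1.49-fold higher, with a log2 difference of 0.53. It lay just below the 1.5-fold size of 0.585, and 13.0% of all genes had a difference as high or higher. UBQLN1 was at 27.8 TPM in the POH1 siRNA library and 26.2 TPM in the control library, with a log2 difference of 0.08, which is below the median of all genes and becomes negative when the median ratio is scaled to 1 (-0.05) or with the trimmed mean (-0.04). The annotated antisense gene UBQLN1-AS1 was at 2.49 TPM in the POH1 siRNA library and 2.65 TPM in the control library. The ratio of UBQLN1 to UBQLN2 was 2.16 in the POH1 siRNA library and 3.04 in the control library.

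UBQLN4 was the most abundant ubiquilin gene, at 80.5 TPM in the POH1 siRNA library and 75.2 TPM in the control library. UBQLN2 made up 10.6% of the ubiquilin sum with POH1 siRNA and 7.83% in the control. UBQLNL was below 1 TPM in both libraries. RAD23B, another main shuttle gene, was at 51.2 TPM in the POH1 siRNA library and 42.3 TPM in the control library, a log2 difference of 0.27.

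In the whole list of shuttle and triage factors, 13 of 16 genes passed the filter. Of these, 1 was at least 1.5-fold higher and 0 were 1.5-fold lower, with a median of 0.31. The shares over all genes were 10.2% higher and 8.88% lower, so 1 of 13 is close to the share of higher genes. This list includes UBQLN1, UBQLN2 and DDI2. The called gene was GET4, a subunit of the BAG6 triage complex, at 119 TPM in the POH1 siRNA library and 76.7 TPM in the control library. GET4 shares exons with SUN1, and the sum of both genes differed by 0.46 on the log2 scale, below the 1.5-fold size. GET4 was also not called under the 3 other scalings or after GC adjustment. The shuttle genes called after GC adjustment were UBQLN2 (0.81) and RAD23B (0.69).

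BAG6, the scaffold of that complex, was at 255 TPM in the POH1 siRNA library and 176 TPM in the control library, and SGTA, its client-loading partner, was at 139.9 TPM in the POH1 siRNA library and 105 TPM in the control library. The third subunit, UBL4A, was at 83.3 TPM in the POH1 siRNA library and 75.7 TPM in the control library. SQSTM1, the autophagy receptor p62, was at 636 TPM in the POH1 siRNA library and 429.8 TPM in the control library. NUB1, which leads ubiquitin-like substrates to the proteasome, was at 27.8 TPM in the POH1 siRNA library and 22.2 TPM in the control library. TAX1BP1, another receptor of ubiquitin-tagged cargo, was at 34.9 TPM in the POH1 siRNA library and 40.7 TPM in the control library.

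ZFAND5 was at 37.7 TPM in the POH1 siRNA library and 22.7 TPM in the control library, 1.66-fold higher. Its log2 difference of 0.71 was 0.59 above the median of all genes, and 6.36% of all genes had one as high or higher. In the POH1 siRNA library ZFAND5 was more abundant than UBQLN1 and NGLY1, and in the control library it was less abundant than both. No gene shares its exons or lies opposite to them in the annotation. With the median ratio of all genes scaled to 1 its log2 difference was 0.576, just short of the 1.5-fold size of 0.585, and after GC adjustment it was 0.96.

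The AN1 zinc finger family to which ZFAND5 belongs had a median of -0.34 over 7 genes. The median was -0.070 with a filter at 5 TPM, -0.20 with a pseudocount of 5 and -0.089 after GC adjustment. Of the 7 genes, 1 was at least 1.5-fold higher, ZFAND5, and 1 was 1.5-fold lower, against 10.2% and 8.88% over all genes. The lower gene was ZFAND1, a p97 and stress granule factor, at 12.4 TPM in the POH1 siRNA library and 19.7 TPM in the control library, and its log2 difference of -0.63 was -0.27 after GC adjustment. ZFAND6, the closest relative of ZFAND5, was at 28.3 TPM in the POH1 siRNA library and 42.4 TPM in the control library. ZFAND3 was at 32.1 TPM in the POH1 siRNA library and 21.4 TPM in the control library. Its log2 difference of 0.56 was just short of the 1.5-fold size, and at 0.62 after GC adjustment it passed that size, as did ZFAND5.

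ZFAND2A, the arsenite-inducible member AIRAP that is a classical marker of proteotoxic stress, was at 55.9 TPM in the POH1 siRNA library and 71.03 TPM in the control library. ZFAND2B was at 63.1 TPM in the POH1 siRNA library and 54.8 TPM in the control library, and ZFAND4 was at 1.02 TPM in the POH1 siRNA library and 1.90 TPM in the control library. The sum of the family was 230.4 TPM in the POH1 siRNA library and 234 TPM in the control library. ZFAND5 made up 16.4% of it with POH1 siRNA and 9.70% in the control.

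GC content moved with the differences and bears on how the 8 genes compare. Over 10114 genes averaging at least 5 TPM, the log2 difference had a Spearman correlation with transcript GC content of 0.46, across genes that share the same 2 libraries. NGLY1 had the lowest GC content of the 8 genes, 42.4%, and genes of that GC content had a running median of -0.23. UBQLN2 and ZFAND5 had 44.3% and 45.2% GC, where the running median was -0.14 and -0.11, so their values lay 0.67 and 0.82 above it. UBB, VCP and NFE2L1 had 51.4%, 51.9% and 55.3% GC, where the running median was 0.11, 0.13 and 0.20.

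After GC adjustment the order of the 8 genes was ZFAND5 at 0.96, UBQLN2 at 0.81, UBB at 0.35, VCP at 0.33, UBQLN1 at 0.32, NFE2L1 at 0.23, DDI2 at 0.08 and NGLY1 at -0.09. UBQLN2 then passed the 1.5-fold size, DDI2 was above 0, and NGLY1 was at -0.09. Because an overall median is added back, 0 on this scale is not the level of genes of like GC content. With the running median subtracted and nothing added back, DDI2 was at -0.06 and NGLY1 at -0.23. Both thus lay below genes of like GC content, and each of the others lay above them. The adjusted median of the 8 genes was 0.32, and that of all genes 0.15. The part of GC content in these differences was not tested.

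**Figure D2:**
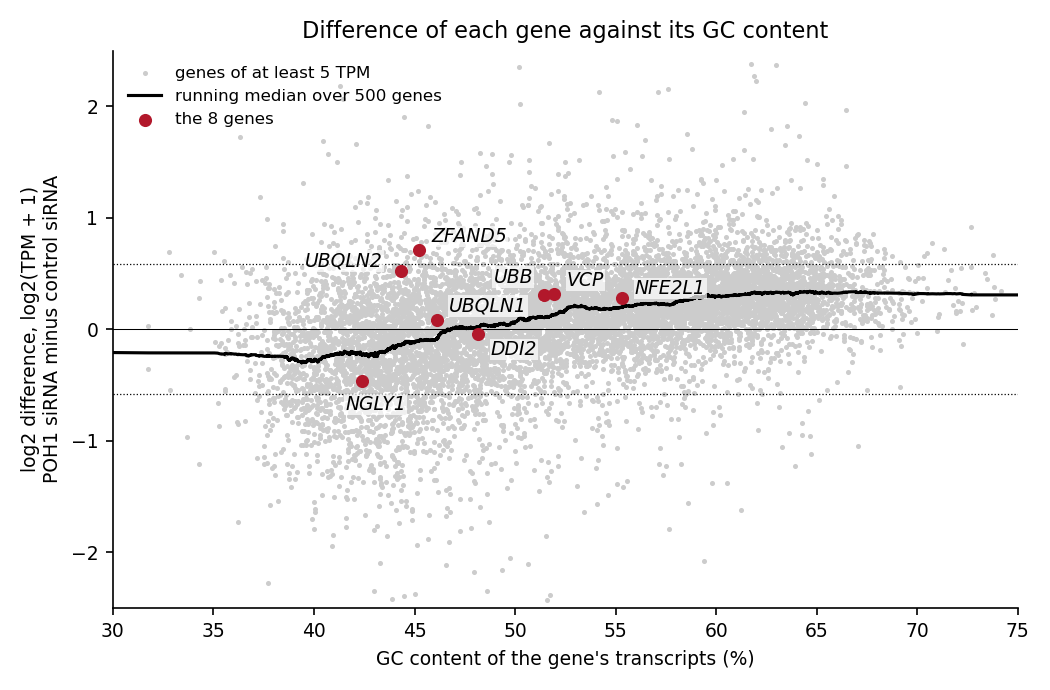
Log2 difference between the libraries (POH1 siRNA minus control siRNA, log2(TPM + 1)) against the GC content of each gene's transcripts in percent, for genes of at least 5 TPM (grey), with their running median over 500 genes (black line), the 1.5-fold size (dotted) and the 8 genes (red; DDI2 is below 5 TPM). ZFAND5 and UBQLN2 lie farthest above the line at 0.71 and 0.53; 23 genes lie outside the axes.

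The proteasome subunit genes are the main known targets of NRF1. In the 20S core, 0 of 14 genes were called higher and 6 were called lower, with a median of -0.01; over all genes, 10.2% were higher and 8.88% lower. In the 19S particle without PSMD14, 1 of 18 was higher, 1 was lower and 16 lay within, neither count above the share over all genes, with a median of 0.04. Both medians were below that of all genes, and the median of the 8 genes described here was above it. After GC adjustment the medians were 0.02 and 0.13, and the 19S median was below 0 under each of the 3 other scalings. The single higher gene was PSMD11, at 93.4 TPM in the POH1 siRNA library and 52.997 TPM in the control library, and the single lower 19S gene was PSMC1, at 75.6 TPM in the POH1 siRNA library and 114 TPM in the control library. The 6 lower core genes were PSMA1 to PSMA6, with log2 differences from -1.20 in PSMA1 to -0.60 in PSMA5. After GC adjustment PSMA1 (-0.91) and PSMA6 (-0.77) remained lower, PSMB2 (0.64) was higher and PSMC1 was within 1.5-fold.

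**Figure D3:**
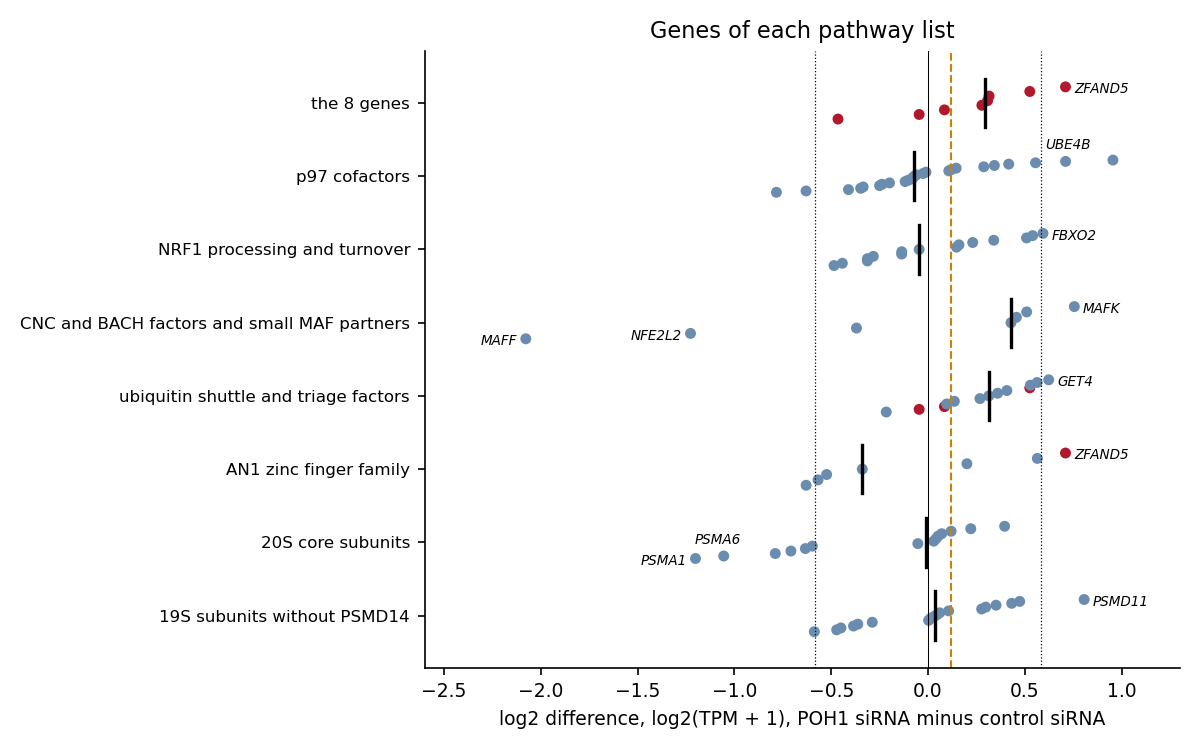
Log2 difference (POH1 siRNA minus control siRNA) of each gene of 7 pathway lists and of the 8 genes, where it passed the filter, 1 point per gene, red for the 8 genes; black bars are list medians, the dashed line is the median of all genes (0.12) and dotted lines are the 1.5-fold size. MAFF (-2.08), NFE2L2 (-1.23) and the core subunit genes PSMA1 and PSMA6 lie farthest to the left, and the 8 genes have a median of 0.29.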

How the data were processed

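The data are RNA sequencing of 2 PC3 libraries, 1 per group. Trizol and an mRNA library kit were used, per the labels' protocols. CASAVA, HISAT2 and hg19 are named in the submitters' processing notes; not given in the sources used here were the versions, annotation, quantifier, strand use and depth. The authors deposited TPM, scaled to a total of 999968 in the POH1 siRNA library and 999955 in the control library. TPM keeps no depth, so no counting interval is given.

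The files' gene identifiers were matched to symbols with a name table (57392 of 58174 matched). The log2 difference was log2(TPM + 1) in the POH1 siRNA library less that in the control library. All shares and medians over genes refer to the 15008 genes averaging at least 1 TPM. With 1 library per group no test was run, and genes were called by size (1.5-fold). GC content, exon overlaps and the UBB units came from GENCODE release 29, and promoter windows from RefSeq (GRCh38.p14). The GC adjustment subtracted a running median over 500 genes of at least 5 TPM and added back their overall median. Python 3.11.15, pandas 2.3.3 and SciPy 1.17.1 were used, and the calculation was checked on simulated data.

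The genes and pathway lists were chosen with earlier results of these data known. Some results that the rule would name are not reported here. The text names the 8 genes and PSMD14, each list gene at least 1.5-fold apart, the shuttle, AN1 and CNC and MAF lists in part or in range, and, where no list gene passed on a side, those nearest to it. Alternatives were pseudocounts of 0.1 and 5, no filter or 5 TPM, 3 other scalings, GC adjustment, protein-coding genes only, sums with exon-sharing genes, and a smaller and a larger size rule (2-fold).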

Additional observations from a re-analysis of the deposited data

How the results depend on the processing

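With no replicates, a difference or a median was taken to have moved when it crossed the 1.5-fold size or 0, and a count when it left 1.5 times its reported value. No paired analysis was possible because each group held 1 library, and no library could be left out. DDI2 has no value with a filter at 5 TPM. Restricting to protein-coding genes moved no value, and it left every value of the 8 genes and of the lists the same as reported. A filter cannot change the log2 difference of a gene that passes it. The size rules bear on counts alone, and by this measure 332 of 416 values did not move, though some of them changed in size. This total includes values that a setting could not change, so it does not measure how stable the results are. GC adjustment moved 15 of 38 values, and so did median scaling. Over all settings ZFAND5 lay between 0.58 and 0.96, UBQLN2 between 0.39 and 0.81, UBB between 0.17 and 0.35, VCP between 0.18 and 0.33, NFE2L1 between 0.14 and 0.28, UBQLN1 between -0.048 and 0.32, DDI2 between -0.13 and 0.081 and NGLY1 between -0.59 and -0.09. List medians lay between 0.16 and 0.32 for the 8 genes, 0.029 and 0.47 for CNC and MAF genes, -0.47 and -0.070 for the AN1 family, 0.18 and 0.34 for shuttle factors, -0.18 and 0.14 for p97 cofactors and for NRF1 processing, -0.15 and 0.015 for the core and -0.096 and 0.13 for the 19S genes.

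Median scaling lowered all log2 ratios by 0.14. It placed NGLY1 at -0.59, UBQLN1 at -0.048 and ZFAND5 at 0.576, so that 0 of the 8 genes were 1.5-fold higher and 1 was lower. The median of the ubiquitin genes was then -0.0014, and that of the 19S genes -0.10. In this setting 1 p97 cofactor was higher; of NRF1 processing genes 0 were higher and 1 lower; of shuttle factors 0 were higher; of the AN1 family 0 were higher and 3 lower; 3 19S genes were lower. Trimmed mean scaling gave UBQLN1 -0.037, NRF1 processing 0 higher and 1 lower, shuttle factors 0 higher, the AN1 family 3 lower, and the 19S genes 2 lower with a median of -0.085. TPM without the most abundant genes gave 0 higher NRF1 processing genes, 0 higher shuttle factors, 3 lower AN1 genes and a 19S median of -0.035.

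GC adjustment gave DDI2 0.081 and UBQLN2 0.81, with 2 of the 8 genes higher. Medians became 0.14 for p97 cofactors, 0.14 for NRF1 processing and 0.015 for the 20S core. Counts became 0 lower p97 cofactors, 2 higher NRF1 processing genes, 2 higher shuttle factors, 2 higher and 0 lower AN1 genes, 1 higher and 2 lower core genes, and 0 lower 19S genes. A pseudocount of 0.1 gave 2 higher NRF1 processing genes, 2 higher CNC and MAF genes and 2 lower AN1 genes. A pseudocount of 5 gave 0 lower p97 cofactors, 0 higher NRF1 processing genes, 0 lower AN1 genes and 0 lower 19S genes. A filter at 5 TPM left 1 lower p97 cofactor, and summing exon-sharing genes left 0 higher shuttle factors.

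At 2-fold, 0 of the 8 genes were higher, 2 core genes were lower, and these counts were 0: p97 cofactors, AN1 and 19S genes in either direction, and higher NRF1 processing, shuttle, and CNC and MAF genes. At the smaller size rule, 2 of the 8 genes were higher and 1 was lower. The counts higher and lower were then 5 and 5 for p97 cofactors, 4 and 2 for NRF1 processing, 2 and 4 for the AN1 family and 4 and 5 for the 19S genes. Counts higher alone were 4 for CNC and MAF genes, 6 for shuttle factors and 1 for the core. Over all genes, 1535 were called higher and 1333 lower as reported; 636 and 668 were with a pseudocount of 5, 960 were higher with median scaling and 1002 with the trimmed mean, 777 were lower after GC adjustment, 323 and 439 passed 2-fold, and 4311 and 2724 passed the smaller size. Beyond these settings the cause of a change was not tested, and TPM without depth limits what can be said of DDI2, near 2 TPM.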
